A study of Macaca fascicularis with 34 samples.

Results

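GIP and CRHBP are a pair of genes for secreted proteins of hormone systems, and their transcripts were followed here in 34 single cells of cynomolgus monkeys (Macaca fascicularis). They are 2 of the 28551 genes in the deposited table and were chosen by symbol, after both had stood out as higher in gonad than in embryo cells in earlier results of these data. Their difference between gonad and embryo is therefore a description and was not tested. GIP has gene ID 102139187 and lies on chromosome 16 of the table, and CRHBP is paired there with the monkey gene LOC101866788 on chromosome 6. Both are listed as protein-coding.

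Per the labels, the gonad cells came from male gonads at embryonic day (E) 36 (6 cells), E47 (1 cell) and E55 (2 cells). Embryos gave 3 cells at E13, 1 at E14, 11 at E16, 2 at E17 and 8 at E20. All animals were of the subspecies fascicularis, and no treatment, animal, cell type or embryo sex is given. Levels are in RPM, reads of a gene after each library was scaled to the same total, from amplified cDNA read at the 3' ends of transcripts. The libraries held between 472185 and 3556558 reads, so that 15 RPM, taken here as detected, stood for at least 7.08 reads. As no animal is named, each stage counted as 1 sample, and no difference between groups was tested.

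GIP encodes the precursor of an incretin, a gut hormone that endocrine K cells of the small intestine release after a meal and that strengthens insulin secretion. The precursor is cut by the convertase PCSK1, and the hormone acts through its receptor GIPR, which raises cyclic AMP. CRHBP encodes a secreted protein that binds corticotropin-releasing hormone (CRH) and the related urocortin and keeps them from their receptors CRHR1 and CRHR2. Primordial germ cells, from which eggs and sperm derive, carry in primates the transcription factor NANOG from early on, and the RNA-binding protein gene DAZL is a marker of germ cells that have reached the gonad.

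Cells were clustered on the other genes, with GIP, CRHBP, NANOG and DAZL left out. The larger cluster held 26 cells, all 9 gonad cells and 17 embryo cells, and all 14 germ cell markers listed had a mean of 15 RPM or more, so it is called germ-cell-like. The other cluster held 8 embryo cells, E16 cell 8 and E20 cells 1 to 7. There, 8 of 10 mesoderm, 6 of 8 amnion, 4 of 8 endoderm and 9 of 14 germ cell markers had such a mean. E16 cell 8 held all 8 endoderm markers at 15 RPM or more, and the E20 cells held at most 2 of them. Some gonad cells also carried more somatic transcripts than any embryo cell. Summed over 8 markers of gonadal somatic cells, the gonad cells held 89.9 to 1006 RPM, against at most 451 RPM in embryo cells. Only E36 cell 1 (481 RPM), E36 cell 5 (1006 RPM) and the E47 cell (741 RPM) lay above the embryo cells. The sum includes GATA4, which many embryo cells held as well. The E47 cell held 21039 RPM over 7 markers of Leydig and other steroid-making cells, and the other gonad cells held at most 90.3 RPM; the part of these transcripts in the results below was not tested.

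GIP was already present in embryo cells at E13 and was found in every E16, E17 and gonad cell. At E13 the 3 cells had 6.35, 119.9 and 98.4 RPM, and the E14 cell had 0 reads, which allows up to 1.3 RPM. At E16 the 11 cells ran from 18.8 RPM over a median of 164 to 306 RPM, and the E17 cells had 132 and 103 RPM. At E20, 5 of 8 cells had 0 reads of GIP, and the median was 0 RPM. E20 cell 5 held 75.0 RPM, E20 cell 7 held 7.46 RPM and E20 cell 8 held 0.738 RPM.

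In the gonad GIP reached its highest levels. The 6 E36 cells ran from 145 RPM over a median of 244 to 500.4 RPM, the E47 cell had 60.8 RPM, and the E55 cells had 655 and 1007 RPM. Both E55 cells lay above all E36 cells and above every embryo cell. In order of mean level the stages stood as E55, E36, E16, E17, E13, E47, E20 and E14. The ranges of E36 and E16, and of E16, E17 and E13, overlapped, and E14 and E47 are single cells.

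CRHBP was missing from the earliest cells and uneven in the later embryo. At E13 the 3 cells together held 1 read, and the E14 cell held 0 reads. At E16 the 11 cells spread from 0 RPM over a median of 14.6 to 279.7 RPM. There, 5 cells held between 21.4 and 279.7 RPM, 1 held 14.6 RPM, and the other 5 (cells 3, 5, 6, 7 and 10) held at most 2 reads each. The E17 cells divided in the same way, with 264.7 RPM in cell 1 and 0.357 RPM, a single read, in cell 2. At E20, 5 of 8 cells had 0 reads, and the highest level, 92.2 RPM, stood in E20 cell 8.

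All gonad cells held CRHBP. The E36 cells ran from 33.7 RPM over a median of 162 to 344 RPM, the E47 cell had 166 RPM, and the E55 cells had 165 and 156 RPM. The highest E36 cell stood above all embryo cells, and every other gonad cell fell within the range of the embryo cells. In order of mean level the stages stood as E47, E55, E36, E17, E16, E20, E13 and E14. The E47 cell lay just above both E55 cells, all 3 lay inside the E36 range, and the E17 mean was carried by 1 of its 2 cells.

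**Figure D1:**
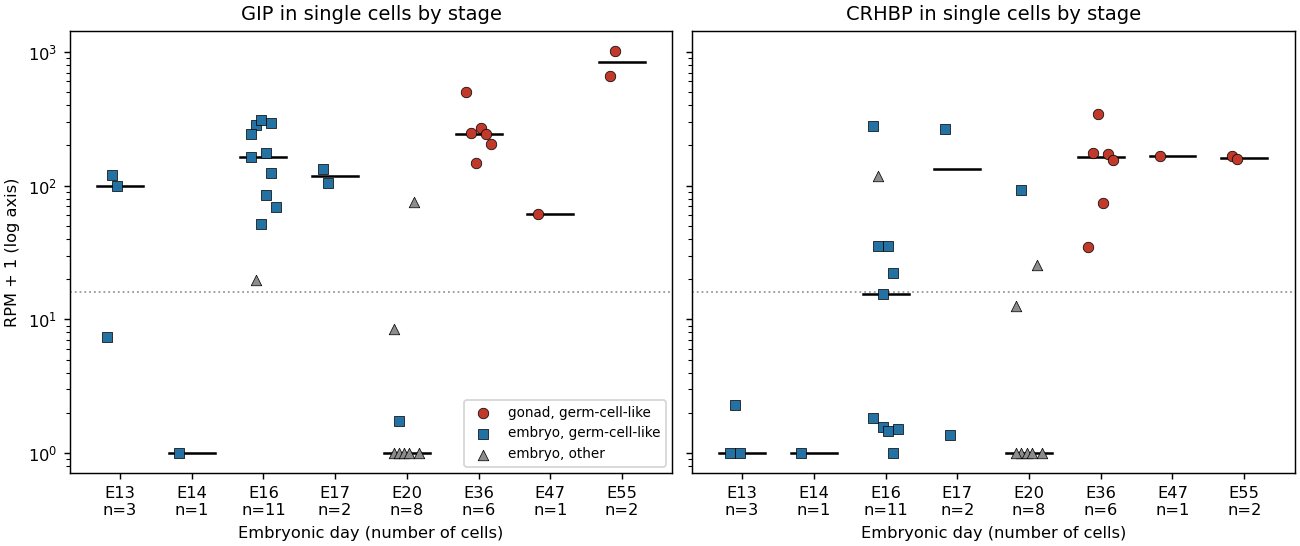
Levels of GIP (left) and CRHBP (right) in each of 34 single cells by embryonic day, as RPM + 1 on a log axis, with the stage median as a bar and 15 RPM as a dotted line. Red circles are gonad cells, blue squares germ-cell-like embryo cells and grey triangles the other embryo cells. All 9 gonad cells lie above the dotted line for both genes, and the 11 E16 cells lie above it for GIP but divide for CRHBP.

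The first comparison set the male gonad against the early embryo. GIP had a mean of 370 ± 300 RPM in the 9 gonad cells, against 94.0 ± 100 RPM in the 25 embryo cells (SD between cells). CRHBP had a mean of 160 ± 84.9 RPM in gonad cells, against 35.95 ± 76.9 RPM in embryo cells. GIP was detected in 9 of 9 gonad and 16 of 25 embryo cells, and CRHBP in 9 of 9 gonad and 8 of 25 embryo cells. Genes were counted as measured when either group averaged 1 RPM or more, and both members were measured in every comparison made here. Of the 15245 genes measured in this one, 14.3% were detected in all gonad cells.

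On the scale of mean log2(RPM + 1), the gonad minus embryo difference was 3.43 for GIP and 4.67 for CRHBP. A difference of 1 or more on this scale, a 2-fold one, was reached by 7.62% of all genes measured, and 1.86% reached it while detected in all gonad cells. Since this contrast had chosen the members, nothing is read from their place among them. With reads summed over the cells of a group, GIP stood at 357 RPM in the gonad, with 95% exact Poisson limits of 347 and 366 RPM, against 111 RPM in the embryo, with limits of 108 and 114 RPM. CRHBP stood at 152 RPM in the gonad (limits 146 and 158 RPM), against 46.5 RPM in the embryo (limits 44.6 and 48.5 RPM). These limits cover counting error only.

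How large the GIP difference was depended on the embryo cells it was set against. Within the germ-cell-like cells it was 2.03, where GIP averaged 132 ± 99.8 RPM in the 17 embryo cells, and with E16 as the sole embryo stage it was 1.14. Within label code MS11, a code in the sample titles that the gonad cells shared with the 2 E17 cells, it was 1.24. For CRHBP the same 3 values were 4.41, 3.80 and 2.86. Other summaries moved both differences. For GIP the log2 ratio of summed reads was 1.68, the difference of medians 1.71 and that with a pseudocount of 10 in place of 1 was 2.42. For CRHBP these values were 1.69, 6.73 and 2.80, with 759, 263 and 709 of the 2279 embryo reads in E16 cell 1, E16 cell 8 and E17 cell 1. Without E36 cell 5, E55 cell 2 and the E47 cell, 3 gonad cells picked for somatic transcripts in earlier results of these data, the difference was 3.52 for GIP and 4.54 for CRHBP. Their summed somatic markers held 1006, 404 and 741 RPM, and E36 cell 1, which stayed in, held 481 RPM. Stage and organ cannot be told apart for the gonad cells. Only the 2 E17 cells shared their label code, so against the other embryo cells code cannot be told apart from stage and organ either.

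E36 and E16 are the stages with the most germ-cell-like cells. GIP had a mean of 268 ± 122 RPM in the 6 E36 cells, against 164 ± 104 RPM in the 11 E16 cells, a log2 difference of 0.98, and 1 E36 cell lay above all E16 cells. CRHBP had a mean of 158 ± 107 RPM in E36 cells, against 45.8 ± 84.8 RPM in E16 cells, a log2 difference of 3.67, with 7 of 11 E16 cells below every E36 cell. The CRHBP difference was 1.65 as a log2 ratio of summed reads and 2.33 with a pseudocount of 10, and that of GIP was 0.57 with medians over cells. Of all genes measured, 7.28% were at least 2-fold higher and 30.2% lower at E36, with CRHBP among the higher genes and GIP just short of them. The E36 cells and the E16 cells carry different label codes (MS11 and MS09), and all of them also entered the gonad and embryo groups above.

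E55 was compared with E36 to follow the genes within the gonad. GIP had a mean of 831 ± 249 RPM in the 2 E55 cells, against 268 ± 122 RPM in the 6 E36 cells. Both E55 cells lay above the E36 cells, which is easily met with 2 cells, and its share over all genes was not counted. E55 cell 2, with 1007 RPM of GIP, was also among the gonad cells picked for somatic transcripts. The log2 difference was 1.70, but 40.8% of all genes were at least 2-fold higher at E55, 10.3% were lower, and the median gene stood at 0.67, and 24.5% of genes had a larger difference than GIP. CRHBP had a mean of 161 ± 6.04 RPM in E55 cells, against 158 ± 107 RPM in E36 cells, with a log2 difference of 0.35, and both E55 cells lay inside the E36 range. It was -0.013 when taken from medians over cells, and -0.021 without E36 cell 1.

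Within the embryo, GIP differed more between the cell classes than CRHBP did. GIP had a mean of 132 ± 99.8 RPM in 17 germ-cell-like cells of embryos, against 12.7 ± 26.1 RPM in the 8 other embryo cells, and 12 of 17 lay above all other cells. The log2 difference was 4.38, where 11.6% of all genes were at least 2-fold higher and 20.9% lower. CRHBP had a mean of 43.8 ± 89.1 RPM in germ-cell-like embryo cells, against 19.2 ± 40.8 RPM in the others, a log2 difference of 0.79, and was detected in 6 of 17 and 2 of 8 cells. The members had been left out of the clustering, but genes that vary with them had not. The other embryo cells were E16 cell 8 and E20 cells 1 to 7, the latter of label code MS08. Class, stage and code thus largely moved together, and their part was not tested. E20 cell 8, germ-cell-like, held 0.738 RPM of GIP, and the germ-cell-like E14 cell held 0 reads. E16 cell 8 and E20 cell 5, of the other cluster, held 18.8 and 75.0 RPM of GIP. Each of them had 9 of 14 germ cell markers at 15 RPM or more, the most in that cluster. They held 222 and 534 RPM of NANOG.

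Among embryo stages, E20 and E16 had the most cells and were compared next. GIP had a mean of 10.4 ± 26.2 RPM in the 8 E20 cells, against 164 ± 104 RPM in the 11 E16 cells, and 7 of 8 E20 cells lay below all E16 cells. The log2 difference of -5.72 was the second lowest of 14998 genes after that of NANOG (-6.14), with 18.9% of genes at least 2-fold lower and 13.9% higher at E20. With a pseudocount of 10 in place of 1 it was -3.30. CRHBP had a mean of 16.04 ± 32.02 RPM in E20 cells, against 45.8 ± 84.8 RPM in E16 cells, a log2 difference of -1.45. The stages overlapped, and E16 cells 1 and 8 lay above all E20 cells. Over all E20 cells it ran from -3.96 with medians over cells to -0.68 with a pseudocount of 10. E20 cells 1 to 7 belonged to the cluster with mesoderm and amnion markers and carried label code MS08, so cell class and code moved with these differences and their part was not tested.

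The single germ-cell-like E20 cell, cell 8, shared label code MS09 with the E16 cells and differed between the members. It held 0.738 RPM of GIP (2 reads) beside 92.2 RPM of CRHBP (250 reads) and 566 RPM of NANOG. Against the 10 germ-cell-like E16 cells its log2 difference was -6.45 for GIP and 3.59 for CRHBP, the second with the sign turned from that of all E20 cells. E20 cell 5, of the other cluster, held 75.0 RPM of GIP and 24.4 RPM of CRHBP beside 534 RPM of NANOG. It was the only embryo cell with a DAZL read.

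Cells with GIP or CRHBP were cells with NANOG, but NANOG was found in 29 of 34 cells, including all 26 germ-cell-like cells. The share of all genes found only with NANOG was not counted, so nothing particular to the members is read from these counts. All 25 cells with at least 15 RPM of GIP also had at least 15 RPM of NANOG, and so did all 17 cells with at least 15 RPM of CRHBP. Among the 29 cells with NANOG, 86.2% had GIP and 58.6% had CRHBP at that level. The 5 cells below 15 RPM of NANOG were E20 cells 1, 2, 3, 6 and 7, all of the other cluster and label code MS08. None of them reached 15 RPM of either member. E20 cell 7 held 8 reads of GIP without a NANOG read, and E20 cell 1 held 17 reads of CRHBP with 0.687 RPM of NANOG. The 4 cells with NANOG and less than 15 RPM of GIP were E13 cell 1, the E14 cell and E20 cells 4 and 8.

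The relation of either member to the level of NANOG depended on the cells taken. Over all 34 cells Pearson's r of log2(RPM + 1) with NANOG was 0.70 for GIP and 0.36 for CRHBP, values that join cells with and without NANOG. Within the 26 germ-cell-like cells r was 0.038 for GIP and -0.16 for CRHBP. Within the 11 E16 cells it was 0.68 for GIP and -0.12 for CRHBP, and without the 2 cells farthest from the median of NANOG it was 0.071 for GIP and 0.66 for CRHBP. Within the 6 E36 cells it was 0.46 for GIP, with a Spearman's rho of 0.77, and -0.53 for CRHBP. E55 cell 2, for example, had the highest GIP (1007 RPM) and the lowest NANOG of the germ-cell-like cells (479 RPM). The E14 cell had 1434 RPM of NANOG and no read of either member. These cells share label codes and differ in depth. Over the germ-cell-like cells, r with the log2 depth was 0.021 for GIP and 0.054 for CRHBP, and over the 17 of them from embryos it was 0.15 for GIP and 0.39 for CRHBP.

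DAZL was carried by gonad cells, while GIP and CRHBP were also found without it. The 6 cells with at least 15 RPM of DAZL, all from gonads, had at least 15 RPM of both members. GIP reached that level in 19 further cells and CRHBP in 11. All 9 gonad cells held both members at that level, with or without DAZL, so the overlap was set by the gonad cells. Of the 15245 genes measured in gonad or embryo cells, 14.3% were detected in all gonad cells, and the members had been chosen for their gonad level. E36 cell 3 held 2.45 RPM of DAZL with 145 RPM of GIP and 344 RPM of CRHBP. E36 cell 5 held 3.40 RPM of DAZL with 240.4 RPM of GIP and 171 RPM of CRHBP. E55 cell 2 held 7.97 RPM of DAZL with 1007 RPM of GIP and 156 RPM of CRHBP. The 25 embryo cells held 1 DAZL read in all. Over all 34 cells r with DAZL was 0.42 for GIP and 0.54 for CRHBP, and over the 26 germ-cell-like cells it was 0.34 and 0.54, values that join gonad cells with embryo cells at 0. Within the 6 E36 cells it was 0.54 for GIP and -0.64 for CRHBP. Within the 9 gonad cells r with DAZL was -0.21 for GIP and -0.56 for CRHBP, and -0.67 and -0.32 for these genes without the 2 cells farthest from the median of DAZL.

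**Figure D2:**
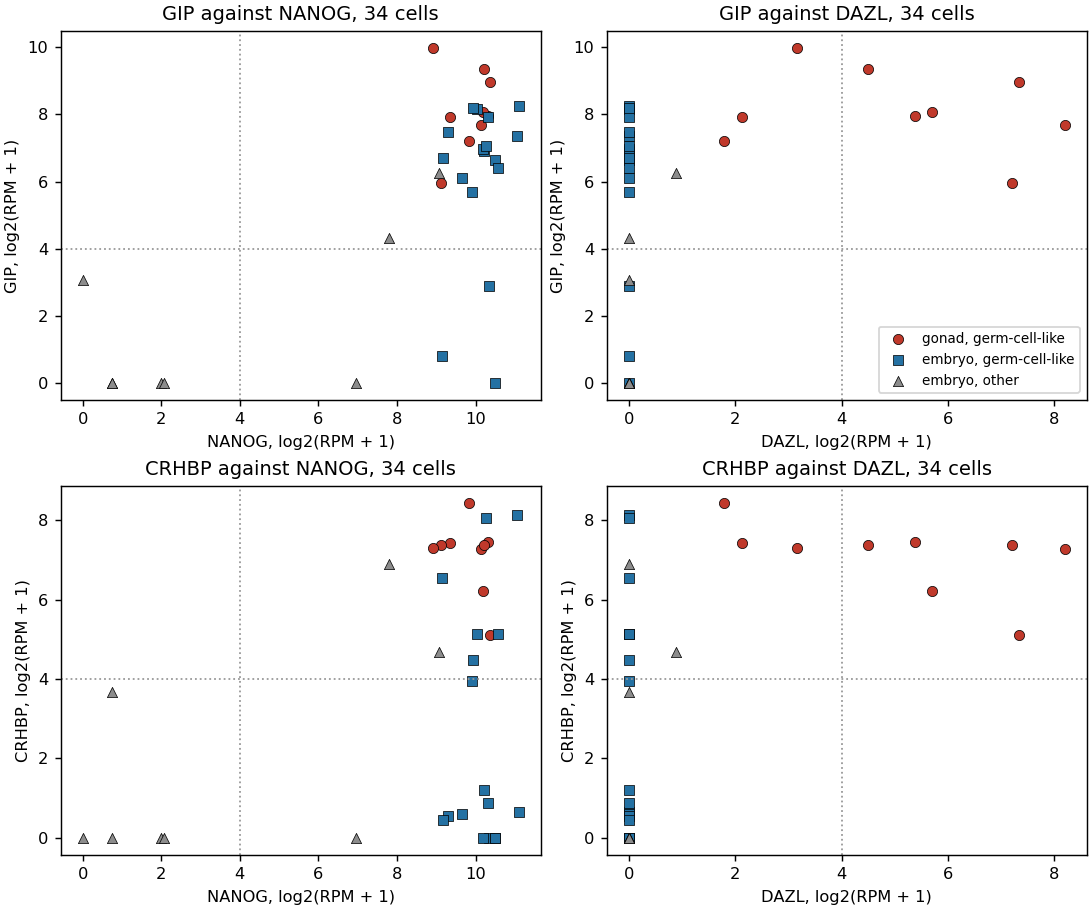
GIP (top) and CRHBP (bottom) against NANOG (left) and DAZL (right) in 34 single cells, all as log2(RPM + 1), with dotted lines at 15 RPM. Symbols are as named in the legend. The upper left quadrant is empty in both NANOG panels, where only 5 cells lie below 15 RPM of NANOG. The lower right quadrant is empty in both DAZL panels, where DAZL reaches 15 RPM only in gonad cells, all of which held both members.

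The members were often found in the same cells and were only loosely related in level. At 15 RPM, 16 cells held both, 9 held GIP alone, 8 held neither, and E20 cell 8 held CRHBP alone. The 9 cells with GIP alone were all germ-cell-like embryo cells, namely E13 cells 2 and 3, 6 of the E16 cells and E17 cell 2. In the 5 E16 cells with at most 2 reads of CRHBP, GIP ran from 67.8 to 306 RPM, a span that took in most other E16 cells. Pearson's r between GIP and CRHBP was 0.48 over all 34 cells, 0.31 over the 26 germ-cell-like cells and 0.073 over the 17 of them from embryos.

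At E36 the members ran in opposite order at the extremes. E36 cell 1 had the most GIP, 500.4 RPM, with the least CRHBP, 33.7 RPM. E36 cell 3 had the least GIP, 145 RPM, with the most CRHBP, 344 RPM. Cell 4, second in GIP with 267 RPM, was second lowest in CRHBP with 73.1 RPM, and cells 2, 5 and 6 lay between. Over these 6 cells r was -0.94 and Spearman's rho -0.77, which describes 6 cells of 1 stage and label code. Over all 9 gonad cells r was -0.33, and both E55 cells had high GIP with a middling CRHBP.

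**Figure D3:**
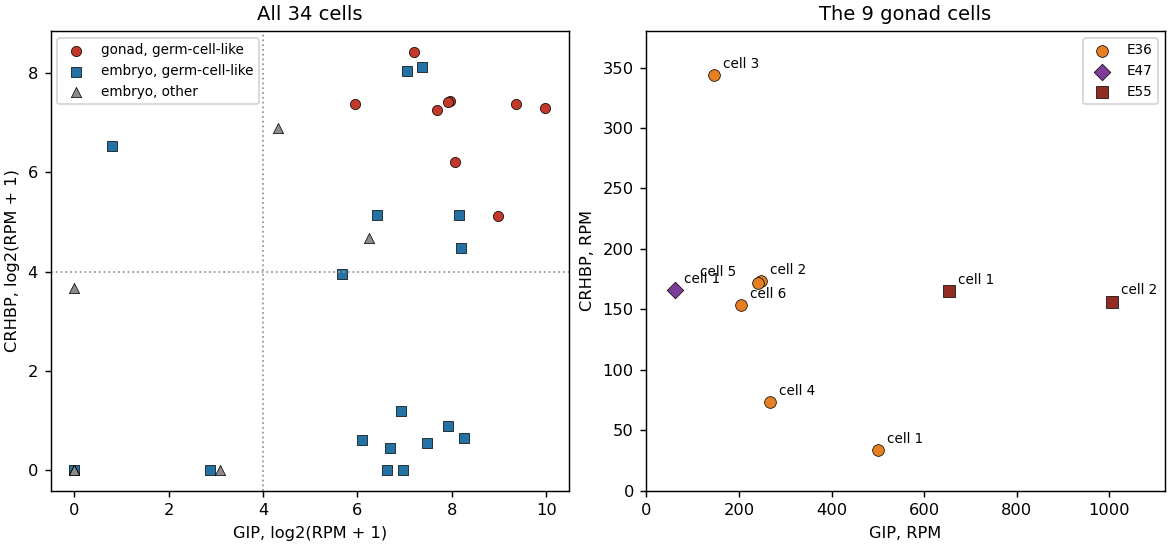
GIP against CRHBP in all 34 cells as log2(RPM + 1), with dotted lines at 15 RPM (left), and in the 9 gonad cells as RPM, labelled by cell number within the stage (right). The left panel shows germ-cell-like embryo cells with GIP and almost no CRHBP. The right panel shows E36 cells 1 and 3 at opposite ends of the E36 cells, with the E55 cells higher and the E47 cell lower in GIP.

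Other hormones of the glucagon and secretin family were absent or sparse, apart from ADCYAP1. Of 5 family members in the table, 2 were measured, that is, averaged at least 1 RPM in either group, namely ADCYAP1 and GIP itself, which this contrast had chosen. Both stood at least 2-fold higher in the gonad, where 7.62% of all genes did. ADCYAP1, which encodes the neuropeptide PACAP, had a mean of 37.9 ± 29.3 RPM in gonad cells, against 7.39 ± 25.4 RPM in embryo cells. It was detected in 7 of 9 gonad and 3 of 25 embryo cells, the highest being E20 cell 5 with 124.7 RPM. GCG, the glucagon gene, had no read anywhere, a limit of 0.0468 RPM over all libraries. VIP had 10 reads in 1 cell and GHRH 2 reads in 2 cells.

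The receptor and the cutting enzyme of GIP were close to absent. GIPR had 3 reads, all in E17 cell 2, which held 103 RPM of GIP, and 0 reads in the gonad cells, which allows up to 0.198 RPM there. Of the 9 receptors of the family only GLP2R was measured in gonad or embryo cells, at 10.6 ± 23.1 RPM in gonad and 6.85 ± 19.6 RPM in embryo cells. PCSK1 had 0 reads in gonad cells and 173 in embryo cells, and 0 reads in the 26 germ-cell-like cells, a limit of 0.0572 RPM over them. Its embryo reads lay in E16 cell 8 and E20 cell 7, which held 18.8 and 7.46 RPM of GIP. PCSK2, the related convertase, reached 15 RPM in 1 gonad cell, E36 cell 5, with 18.7 RPM.

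Several other genes of the secretory route were present, and some of them were lower in gonad cells. Of 10 measured genes for prohormone processing and secretory granules, 3 were at least 2-fold lower in gonad than in embryo cells, where 15.1% of all genes were, and 0 were higher. Set against germ-cell-like embryo cells, 5 of 9 were lower and 1 was higher, where 14% of all genes were lower and 9.01% higher. The median of the list was -0.75 against embryo cells and -1.54 against germ-cell-like embryo cells, where all measured genes had -0.17 and -0.095. CPE, which trims cut hormone precursors, had a mean of 12.3 ± 19.4 RPM in gonad cells, against 58.4 ± 45.0 RPM in germ-cell-like embryo cells. PAM, which amidates peptides, had a mean of 313 ± 129 RPM in gonad cells, against 1009 ± 538 RPM in germ-cell-like embryo cells. SCG5, a chaperone of PCSK2, had a mean of 77.8 ± 134 RPM in gonad cells, against 185 ± 88.6 RPM in those embryo cells. The gonad stages differed for SCG5, with 10.5 ± 15.9 RPM in the 6 E36 cells and 279 ± 187 RPM in the 2 E55 cells. DPP4, the protease that inactivates incretins, had a mean of 30.7 ± 32.5 RPM in gonad cells, against 28.9 ± 43.6 RPM in germ-cell-like embryo cells. At E36, 5 of 9 measured genes of the list were 2-fold lower than at E16 and 0 were higher, where 30.2% of all genes were lower and 7.28% higher. At E55, 4 of 8 were 2-fold higher than at E36 and 0 were lower, where 40.8% of all genes were higher and 10.3% lower. At E20, 6 of 9 were lower than at E16 and 2 were higher, where 18.9% of all genes were lower and 13.9% higher. E20 cells 1 to 7 and E16 cell 8 were of the other cluster, so cell class moved with this contrast. The germ-cell-like E20 cell 8 held 1269 RPM of PAM but 49.4 RPM of SCG5, and E16 cell 8 held 136 and 31.8 RPM. The part of cell class was not tested.

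Regulators of GIP known from gut endocrine cells, largely in rodents, were mostly missing. PDX1 and NEUROG3 had 0 reads in all 34 cells, and PAX6 and NEUROD1 had 1 read each. ISL1, which also marks the amnion, was detected in 1 of 9 gonad and 5 of 25 embryo cells, with a mean of 42.9 ± 67.5 RPM in E20 cells, against 5.83 ± 11.9 RPM in E16 cells. GATA4, which also marks gonadal somatic cells, was detected most widely. It had a mean of 168 ± 79.6 RPM in gonad cells, against 104.5 ± 94.5 RPM in embryo cells, and was detected in 9 of 9 gonad and 20 of 25 embryo cells. Of the 4 measured genes of this list GATA4 stood at least 2-fold higher in the gonad, as did 7.62% of all genes, and 0 were lower, as were 15.1% of all genes. Of 7 markers of gut endocrine cells in the table, at most 2 reached 15 RPM in any gonad cell, and NEUROD1, NEUROG3, INSM1 and GCG had 0 reads in all of them.

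The ligands and receptors that go with CRHBP were scarce in the gonad. CRH had 17 reads, all in E20 cell 3, and UCN had at most 13.8 RPM in any cell, reached in E16 cell 5. UCN2 and UCN3 had 0 reads in all 34 cells. CRHR1 had 68 reads in 3 cells, all from embryos. CRHR2 was found in the embryo, with 38.6 to 224 RPM in E16 cells 2, 4, 5 and 10 and both E17 cells, and had 1 read among all gonad cells. It had a mean of 0.0544 ± 0.163 RPM in gonad cells, against 20.6 ± 47.9 RPM in embryo cells. E16 cells 2 and 4 and E17 cell 1 held CRHR2 together with CRHBP, and E16 cells 5 and 10 and E17 cell 2 held CRHR2 with at most 1 read of CRHBP. Of 5 measured genes of the CRH system 1, CRHBP itself, which the contrast had chosen, was at least 2-fold higher and 1, CRHR2, was lower in the gonad, beside 7.62% and 15.1% of all genes.

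Genes of the cyclic AMP route, through which hormones of both systems act, gave counts near those of all genes. Of 15 measured genes 1 was at least 2-fold higher and 1 was lower in gonad than in embryo cells, beside 7.62% and 15.1% of all genes, with a median of 0.022. PRKAR2B, a regulatory subunit of protein kinase A, had a mean of 197 ± 124 RPM in gonad cells, against 129 ± 106 RPM in embryo cells. CREB1, a transcription factor that protein kinase A activates, had a mean of 36.2 ± 37.7 RPM in gonad cells, against 61.7 ± 67.4 RPM in embryo cells. Against E16, E20 cells had more GNAS, which encodes the stimulatory G protein subunit, at 1257 ± 529.8 RPM in E20 and 185 ± 292 RPM in E16 cells. The germ-cell-like E20 cell 8 held 104 RPM of GNAS, and E16 cell 8, of the other cluster, held 1039 RPM. The part of cell class was not tested.

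**Figure D4:**
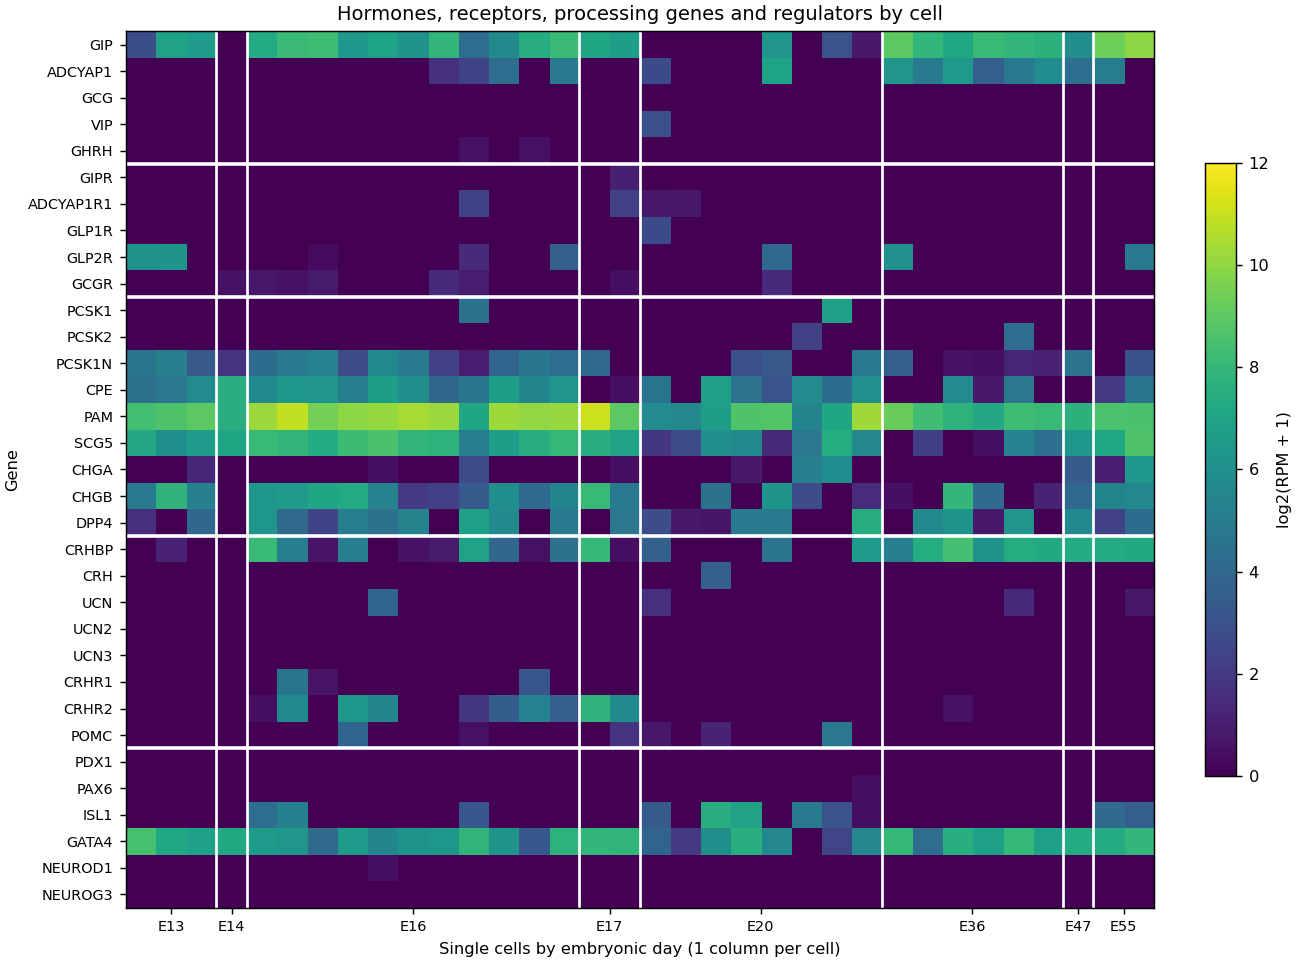
Heat map of log2(RPM + 1) for hormones, receptors, processing genes, CRH system genes and regulators of GIP in gut endocrine cells (rows) in 34 single cells (columns, by embryonic day). White lines separate gene groups and stages. GIP and CRHBP stand as bright rows among receptors and ligands that are mostly at 0, and CRHR2 appears at E16 and E17.

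Across the genome, the genes whose levels over the 34 cells were most like those of GIP and of CRHBP were different ones. They were ranked by Pearson's r among 9589 other genes with a human symbol that reached 15 RPM in at least 5 cells. For GIP the first 8 were RPL15 (0.80), TSPAN7 (0.78), DOCK11 (0.74), PLEKHA2 (0.74), SLC23A2 (0.73), RPL35 (0.73), LRPPRC (0.72) and DCAF4 (0.72), and NANOG came 17th. For CRHBP they included POLR3A (0.67), UGCG (0.66), RPS6 (0.66), KLF4 (0.64), UAP1 (0.62), RAC1 (0.62) and GALNT2 (0.61). DAZL came 29th for CRHBP and 433rd for GIP, and GIP itself came 82nd for CRHBP. Within the germ-cell-like cells r lay in a range of 0.22 to 0.61 for the genes named with GIP and 0.58 to 0.70 for those named with CRHBP. The lists rest on the same 34 cells, which also differ in class, code and depth.

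The protein-coding genes nearest to GIP and CRHBP in the annotation, 2 on each side of each member, were also read. Of these 8 genes B4GALNT2 averaged below 1 RPM in both groups and was not measured. Among the others 0 stood at least 2-fold higher in the gonad, a count near the share of 7.62% over all genes. Only F2RL1 was at least 2-fold lower, beside 15.1% of all genes. In the T2T-MFA8v1.1 annotation of RefSeq, used here for gene order only, 0 annotated genes overlapped either member. Beside GIP, IGF2BP1 had a mean of 113 ± 49.4 RPM in gonad cells, against 168 ± 107 RPM in embryo cells, and SNF8 had a mean of 70.2 ± 40.0 RPM in gonad cells, against 69.4 ± 36.9 RPM in embryo cells. Beside CRHBP, F2RL1 had a mean of 3.41 ± 6.06 RPM in gonad cells, against 61.2 ± 80.9 RPM in embryo cells, and AGGF1 had a mean of 80.0 ± 58.5 RPM in gonad cells, against 103 ± 67.3 RPM in embryo cells.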

How the data were processed

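RNA of 34 single cells had been amplified as cDNA and sequenced as SOLiD libraries, per the labels' protocols. Cufflinks 2.2.0, TopHat 1.4.1 and cutadapt 1.3 are named in the submitters' processing notes, with no roles; the sources used here name neither build nor annotation. The authors deposited 1 table of log2 values, log2(RPM + 1). Reads per cell were recovered from the step between low values, of which 99.7% to 100% were whole within 0.1 read. A cell is a column, and stages come from the labels. The members and lists were chosen with earlier results of these data known.

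Means and SD are over cells, and a difference is that of mean log2(RPM + 1). Genes counted as measured when either group averaged 1 RPM or more, and were counted at a 2-fold difference. Clusters are the 2 Ward clusters on the 2000 most variable genes without GIP, CRHBP, NANOG and DAZL. Because these levels also built the clusters, classes are descriptions. A count of 0 allows up to 3 reads. Named genes are the members, NANOG, DAZL, list members averaging 15 RPM or more in either group, and the 8 genes most like each member, of which 1 is not reported here. List members below that level, neighbouring genes and single cells were named after their values were seen. SCT, FURIN, ADCY1 and TRH had no row under those symbols. Alternatives covered the pseudocount, medians, summed reads, thresholds, cell classes and codes, and leaving out each cell. Steps were tested on simulated data. Python 3.11.15, numpy 2.4.6, pandas 2.3.3, scipy 1.17.1 and matplotlib 3.10.9 were used.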

Additional observations from a re-analysis of the deposited data

Results flagged for a closer look

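Single cells lying apart were looked for in stages of 4 to 10 cells and in the 9 gonad cells, by the gap from the highest or lowest cell to its neighbour over the whole range. Of 12 screens (2 genes, 3 groups, 2 scales) 4 passed Dixon's 95% critical value, all on the linear scale and none on the log2 scale. The nominal rate of 1 in 20 holds for normal values in separate groups. Linear RPM is skewed, and the E36 cells are also gonad cells, so the 4 flags are not set against that rate. E20 cell 5 held 75.0 RPM of GIP, far above the other E20 cells, and E36 cell 1 held 500.4 RPM of GIP, above the other E36 cells. E20 cell 8 held 92.2 RPM of CRHBP, above the other E20 cells, and E36 cell 3 held 344 RPM of CRHBP, above the other gonad cells.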

How the results depend on the processing

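Of 196 alternative values of the 8 differences, 193 moved by less than 1 SD between cells. GIP at E20 minus E16 was -3.30 with a pseudocount of 10. CRHBP in gonad minus embryo cells was 1.69 as a log2 ratio of summed reads. CRHBP at E20 minus E16 turned to 3.59 in germ-cell-like cells, where 1 E20 cell remains. Most of the 196 values left out a single cell, which moves a mean little, so the count of 193 is a weak measure. The SD was also wide, at 2.84 for GIP in gonad minus embryo cells. That difference fell from 3.43 to 1.14 with E16 as the sole embryo stage and still lay within 1 SD. With single cells left out, the gonad minus embryo difference ran from 3.20 to 3.71 for GIP and from 4.50 to 4.92 for CRHBP, E36 minus E16 from 0.71 to 1.14 and from 3.34 to 4.16, E20 minus E16 from -6.43 to -5.54 and from -2.12 to -0.97, and E55 minus E36 from 1.39 to 2.01 and from -0.021 to 0.64. The count of embryo cells with CRHBP was 8 at 15 RPM and 4 at 50 RPM. The correlation of GIP with NANOG was 0.49 as Spearman's rho and 0.038 in germ-cell-like cells, and that of CRHBP with NANOG turned to -0.16 there; the cause was not tested. Without a filter on low values 4.07% of genes were 2-fold higher in gonad cells. E16 as the sole embryo stage, and E20 without cell 8, were chosen after seeing the data. No paired analysis was possible because the labels give no replicate numbers and no animals. E13 libraries were the shallowest, with 472185 to 775712 reads, and a single-cell level near 1 read cannot be told from 0.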

Other observations

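Other hormone genes and hormone-binding proteins on the list drawn up with the members are given here by gonad and embryo and by embryo stage. IGFBP6, which binds insulin-like growth factors, had a mean of 59.2 ± 56.7 RPM in gonad cells, against 18.3 ± 48.0 RPM in embryo cells (SD, 9 and 25 cells), and reached 15 RPM in 6 gonad and 5 embryo cells. IGFBP3 and IGFBP4, of the same family, had means of 422 and 444 RPM in E20 cells, against 8.74 and 27.4 RPM in E16 cells. FST, which encodes the activin-binding protein follistatin, had a mean of 251 RPM in E20 cells, against 25.5 RPM in E16 cells. That E16 mean was carried by E16 cell 8, of the other cluster, with 271 RPM. E20 cells 1 to 7 were also of that cluster, and IGFBP3 is itself on the amnion marker list. The germ-cell-like E20 cell 8 held 5.53 RPM of IGFBP3, 77.5 RPM of IGFBP4 and 0.369 RPM of FST. The part of cell class was not tested. GNRH1, the gonadotropin-releasing hormone gene, had 0 reads in gonad cells and reached 15 RPM in 5 embryo cells. INHA, which encodes the inhibin alpha subunit, was held by 2 gonad cells, the E47 cell with 586 RPM and E55 cell 2 with 212 RPM, which held 741 and 404 RPM over the gonadal somatic markers; the part of somatic transcripts was not tested. Of the 12 measured genes of this list 2 were at least 2-fold higher and 4 were lower in gonad than in embryo cells, beside 7.62% and 15.1% of all genes, with a median of 0.11.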
